A study of Homo sapiens with 4 samples.

Results

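The venous and lymphatic identity genes described here are NR2F1, NR2F2, PROX1, PDPN, LYVE1, STAB1, STAB2 and CCL21, 8 genes chosen by symbol and found once each among the 28285 gene rows of every library. RNA sequencing had been run on the progeny of H1 (an established line of human embryonic stem cells) in which 1 allele of GATA2, a zinc-finger transcription factor of blood and endothelial cells, carries a knocked-in enhanced green fluorescent protein (eGFP). The knock-in, and the word Cre without a stated role, stand in the labels of all 4 libraries. The GFP-positive group (2 libraries) held sorted eGFP+ CD34+ CD31+ CD43- cells, labelled hemogenic endothelium, the endothelium that gives rise to blood cells. The GFP-negative group (2 libraries) held sorted eGFP- CD34+ CD31+ CD43- cells, labelled endothelial cells in the cell type field and hemogenic endothelium in the title and source name. The labels give no day of differentiation and do not say whether the replicates are separate cultures. Every p-value below therefore reflects nothing but the spread among these 4 samples, and that spread may be technical.

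Endothelial cells take arterial, venous or lymphatic identity during development. NR2F2 (also called COUP-TFII) is an orphan nuclear receptor that maintains venous identity and restrains Notch signalling, which drives the arterial programme. In a subset of embryonic vein cells, SOX18 and NR2F2 act on PROX1, the homeobox factor that specifies lymphatic endothelium, and lymphatic cells then display podoplanin, LYVE1 and the VEGFC receptor encoded by FLT4. Stabilin receptors and LYVE1 are also known from sinusoidal endothelium and from macrophages.

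STAB1 was the abundant gene of the set, at 292 to 456 TPM (transcript abundance corrected for length and scaled to 1 common total per library), and made up 85.3% to 90.7% of the summed TPM of the 8 genes in each library. NR2F2 had the difference with the smallest p, with means of 9.09 ± 4.65 TPM (SD, n = 2) in the GFP-positive and 33.35 ± 8.44 TPM in the GFP-negative group, and it did not pass the test over all genes. NR2F1, PDPN and STAB1 had overlapping groups. PROX1, LYVE1, STAB2 and CCL21 stayed below 5 TPM in every library. The venous regulator NR2F2 thus stood lower in both libraries of GFP-positive cells, as did 21.5% of all tested genes. The lymphatic regulator PROX1, LYVE1 and CCL21 were scarce in both groups.

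Differences were tested with limma on log2(TPM + 1) over all 15425 genes that reached 1 TPM in at least 2 libraries, with Benjamini-Hochberg adjustment and a threshold of 0.05. A fold change on this scale understates the change of low genes. Of the 8 genes, 6 met the filter, while LYVE1 and STAB2 did not and are given by their values only. None of the 6 passed, 0 higher and 0 lower in GFP-positive cells, against 0.447% of all tested genes (19 higher, 0.123%, and 50 lower, 0.324%). At an unadjusted p under 0.05 there was 1 of the 6, NR2F2, against 14.1% of all tested genes. Groups did not overlap for 3 of the 6 genes, against 44.3% of all tested genes, a share near the background. The median log2 fold change of the 6 was 0.42 (4 above 0, 2 below), beside 0.02 over all tested genes. CCL21 could meet the filter through the GFP-positive libraries alone, so these counts describe the genes that met it and not the whole set.

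Read totals are not known from TPM, but low values fell in steps. For genes with a single annotated transcript of over 1500 nt, 65.9% to 69.0% of low values of TPM times length lay within 0.15 of a whole step, where evenly spread values would give 30%. These values also served to fit the step. If 1 step is 1 read, the relative depths of replicates 1 and 2 were 0.901 and 0.597 for GFP-positive cells and 1 and 0.789 for GFP-negative cells. Across genes, which are not independent replicates, Pearson's correlation of log2(TPM + 1) was 0.926 within the GFP-positive group, 0.939 within the GFP-negative group and 0.904 to 0.921 between groups. All 10 listed endothelial markers (CDH5, KDR, TIE1, TEK, ERG, CD34, ESAM, EGFL7, CLDN5 and ROBO4) were measured, with summed levels of 4048 and 4305 TPM in GFP-positive and 6964 and 6576 TPM in GFP-negative libraries. In all 10, both GFP-positive libraries lay below both GFP-negative libraries, as did 21.5% of all tested genes. Among them 1, CD34, passed as lower, beside 0.324% of all tested genes, and CLDN5 was listed at 0 in GFP-positive replicate 2. Of 13 erythroid and megakaryocyte markers, all tested, 1 rose (HBG2), beside 0.123% of all tested genes. Both GFP-positive libraries were higher for 9 of them, beside 22.8% of all tested genes, and the median log2 fold change was 2.26. Their sums were 540 and 368 TPM in GFP-positive and 109 and 122 TPM in GFP-negative libraries. The part of such cells in the results was not tested. In such bulk libraries, fewer cells of a type and less RNA per cell cannot be told apart.

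NR2F1 and NR2F2 encode closely related nuclear receptors, so their coding sequences are compared to show how far the 2 genes differ. In GENCODE v29 on GRCh38, their coding sequences (1272 and 1245 nt) were identical at 84.2% of 1227 aligned bases, and the longest identical run was 35 bases. The ungapped stretch of 120 bases with the most identical bases is printed for each, in coding orientation, with the 10 differing bases in capitals. Positions count from the first base of the start codon, 595 to 714 in NR2F1 and 574 to 693 in NR2F2.
NR2F1: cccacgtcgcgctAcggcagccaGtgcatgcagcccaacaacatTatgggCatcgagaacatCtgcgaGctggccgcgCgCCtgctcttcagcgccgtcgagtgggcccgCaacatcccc
NR2F2: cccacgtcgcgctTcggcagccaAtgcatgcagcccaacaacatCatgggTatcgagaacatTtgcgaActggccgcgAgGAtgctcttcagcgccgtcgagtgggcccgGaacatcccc
The differences are scattered through the stretch. Of 5226 stretches of 50 bases in the principal NR2F2 transcript, 0 occurred in any other annotated gene, and of 3792 in that of NR2F1, 109 did, all of them in the antisense gene NR2F1-AS1. The read length is not given in the sources used here.

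NR2F2 (ENSG00000185551; chromosome 15, 96325938 to 96340263, plus strand) had 12.4 TPM in replicate 1 and 5.80 TPM in replicate 2 of the GFP-positive cells, and 39.3 TPM in replicate 1 and 27.4 TPM in replicate 2 of the GFP-negative cells. Both GFP-positive libraries lay below both GFP-negative libraries, as they did for 21.5% of all tested genes. The level was 3.67-fold lower in GFP-positive cells, with a log2 fold change of -1.83 ± 0.43 (SE; 95% interval -2.86 to -0.79; limma unadjusted p = 0.00499, adjusted p = 0.15). A log2 fold change at least as large in size was found in 455 tested genes, 2.95% of them. With a library left out in turn, the log2 fold change ran from -2.31 without GFP-positive replicate 1 to -1.34 without GFP-positive replicate 2, and limma's adjusted p from 0.0805 to 0.445. NR2F2-AS1, a gene on the opposite strand whose span reaches into that of NR2F2 but which shares no exonic base with it, was listed at 0 in each GFP-positive library, while the GFP-negative libraries had 1.33 and 4.89 TPM (limma adjusted p = 0.279).

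NR2F1 (ENSG00000175745; chromosome 5, 93583224 to 93594615, plus strand), also called COUP-TFI and known mainly from neural development, had 12.7 and 11.5 TPM in GFP-positive and 8.54 and 13.6 TPM in GFP-negative libraries. The GFP-negative values enclosed the GFP-positive ones. The log2 fold change was 0.15 ± 0.38 (SE; 95% interval -0.77 to 1.07; limma adjusted p = 0.918), and it was -0.16 without GFP-negative replicate 1. NR2F1-AS1 shares 158 of the 4314 exonic bases of NR2F1 on the opposite strand, and its row stood at 9.63, 5.52, 9.31 and 16.0 TPM, in the same order of libraries. Whether the counting used strand is not given in the sources used here, so reads from the shared bases cannot be told apart.

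The balance between the paralogs was described within each library. The ratio of NR2F2 to NR2F1 within a library was 0.977 and 0.506 in GFP-positive and 4.60 and 2.02 in GFP-negative libraries. NR2F2 was thus the more abundant of the pair in both GFP-negative libraries and in neither GFP-positive library. The mean log2 ratio was -0.51 ± 0.67 (SD, n = 2) against 1.61 ± 0.84, a difference of -2.12, with an exact permutation p of 0.333, two-sided, the smallest that 2 against 2 libraries allow. NR2F2 relative to PROX1 gave 3.31 and 2.07 in GFP-positive and 26.4 and 15.6 in GFP-negative libraries, with the same exact permutation p of 0.333. Relative to CDH5, the gene of VE-cadherin in endothelial cell junctions, NR2F2 stood at 0.0376 and 0.0185 in GFP-positive and 0.0513 and 0.0440 in GFP-negative libraries. Both GFP-positive ratios were again the lower ones, with a difference of the mean log2 ratio of -0.85, smaller than the differences against NR2F1 and PROX1 (exact permutation p of 0.333, two-sided). These 3 ratios, of the 8 computed, were described with the levels known.

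**Figure D1:**
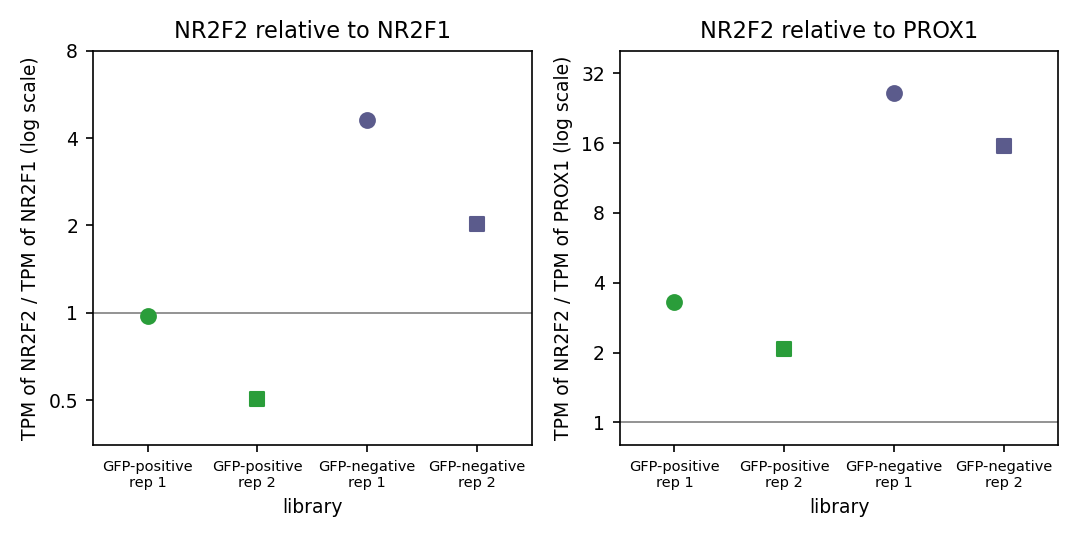
Ratio of the TPM of NR2F2 to that of NR2F1 (left) and to that of PROX1 (right) in each of the 4 libraries, on log scales; each point is 1 library, green for GFP-positive and purple for GFP-negative, and the grey line marks equal levels. Relative to NR2F1, the GFP-positive libraries sit at 0.977 and 0.506 and the GFP-negative libraries at 4.60 and 2.02.

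PROX1 (ENSG00000117707; chromosome 1, 213983181 to 214041502, plus strand), the homeobox factor of lymphatic fate, had 3.74 and 2.80 TPM in GFP-positive and 1.49 and 1.76 TPM in GFP-negative libraries. The 2 GFP-positive values exceeded the 2 GFP-negative values, as they did for 22.8% of all tested genes. The log2 fold change of 0.70 ± 0.49 (SE; 95% interval -0.49 to 1.88) did not pass (limma adjusted p = 0.599). If a step is a read and the principal transcript of 8498 nt is the one expressed, these values stand for about 50.1 and 24.8 reads in GFP-positive and 22.1 and 20.6 in GFP-negative libraries. PROX1-AS1, which shares 171 of the 8928 exonic bases of PROX1 on the opposite strand, had 1.06 and 0.19 TPM in GFP-positive and 0.28 and 2.99 TPM in GFP-negative libraries. Its order over the libraries was not that of PROX1.

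PDPN (ENSG00000162493; chromosome 1, 13583465 to 13617957, plus strand) encodes podoplanin, a mucin-type glycoprotein that binds the platelet receptor CLEC1B and keeps lymph and blood vessels apart. Its levels were 13.6 and 11.4 TPM in the GFP-positive libraries, 1.51 TPM in GFP-negative replicate 1 and 12.1 TPM in GFP-negative replicate 2. A single library stood apart, GFP-negative replicate 1, and the other GFP-negative value lay between the GFP-positive ones. The log2 fold change of 1.23 ± 0.78 (SE; 95% interval -0.68 to 3.14; limma adjusted p = 0.555) rested on that library, since leaving it out gave 0.04, whereas leaving out GFP-negative replicate 2 gave 2.42. PDPN is also expressed by mesenchymal and epithelial cells. Of 13 listed mesenchymal and mural markers, 13 were tested and 0 passed, with summed levels of 3107 and 3005 TPM in GFP-positive and 2032 and 2196 TPM in GFP-negative libraries and none at 0 in all libraries. Of 9 epithelial and mesothelial markers, 8 were tested and 0 passed, with sums of 1719 and 1476 TPM against 885 and 1065 TPM, and KRT7 was at 0 in every library. The part of these cells in the PDPN level was not tested.

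CCL21 (ENSG00000137077; chromosome 9, 34709005 to 34710124, minus strand) encodes the chemokine with which lymphatic vessels attract CCR7-bearing dendritic cells and T cells. It had 1.54 and 2.33 TPM in GFP-positive libraries, 1.01 TPM in GFP-negative replicate 1 and was listed at 0 in GFP-negative replicate 2. For its short transcript of 852 nt, these levels correspond to 2.1, 2.1, 1.5 and 0 steps. The log2 fold change was 1.04 ± 0.60 (SE; 95% interval -0.43 to 2.51; limma adjusted p = 0.511), and 2.58 with a pseudocount of 0.1 TPM. CCR7, its receptor, had 0.68 TPM in GFP-positive replicate 1 and 0 in replicate 2, and 2.10 and 1.66 TPM in the GFP-negative libraries (limma adjusted p = 0.433).

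LYVE1 (ENSG00000133800; chromosome 11, 10556966 to 10611689, minus strand) encodes a hyaluronan receptor of lymphatic and early embryonic endothelium. It had 4.06 TPM in GFP-positive replicate 1 and 0.89 TPM in GFP-negative replicate 1, and was listed at 0 in replicate 2 of each group. The gene was thus above 0 in the replicate 1 library of each fraction alone. There the values correspond to 20.9 steps in GFP-positive and 5.1 in GFP-negative cells. The groups overlapped, and the gene was not tested. The labels do not say what a shared replicate number stands for.

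STAB1 (ENSG00000010327; chromosome 3, 52495338 to 52524495, plus strand) encodes stabilin-1, a large scavenger and endocytic receptor of sinusoidal and lymphatic endothelium and of macrophages. It had 292 and 331 TPM in GFP-positive and 456 and 321 TPM in GFP-negative libraries. GFP-negative replicate 2 fell between the GFP-positive libraries, and GFP-negative replicate 1 was the highest. The log2 fold change of -0.30 ± 0.20 (SE; 95% interval -0.78 to 0.18) did not pass (limma adjusted p = 0.561), and it ranged from -0.05 (leaving out GFP-negative replicate 1) to -0.55 (leaving out GFP-negative replicate 2). Among all gene rows of a library, STAB1 stood at percentiles of 98.1 to 99.0.

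CDH5 itself had 329 and 314 against 767 and 623 TPM, so the ratio to CDH5 of any gene with like levels in the groups is higher in GFP-positive cells by construction. For STAB1 that ratio was 0.887 and 1.05 in GFP-positive and 0.594 and 0.516 in GFP-negative libraries. The difference of the mean log2 ratio to CDH5 was 0.80 for STAB1, 1.27 for NR2F1, 2.10 for PROX1 and 2.64 for PDPN, each with both GFP-positive libraries higher, and NR2F2 alone of these 5 genes had both lower (exact permutation p of 0.333 for each, two-sided). NT5DC2, which lies on the opposite strand and shares 111 of the 10588 exonic bases of STAB1, had 432 and 425 TPM against 519 and 496 TPM. Of 13 listed macrophage and other myeloid markers, 8 were tested and 0 passed, with summed levels of 125 and 185 TPM in GFP-positive and 144 and 138 TPM in GFP-negative libraries. C1QA, C1QB, C1QC and MARCO were at 0 in all 4 libraries, and CD14 was at 0 in all but GFP-negative replicate 1, where it had 0.70 TPM. The 8 tested markers, 4 above and 4 below 0 in log2 fold change, included FCER1G, the highest, at 62.5 and 121 against 91.9 and 76.4 TPM. Without FCER1G the sums were 62.2 and 63.7 against 52.0 and 61.6 TPM. CD68 had 19.6 and 19.4 against 14.4 and 20.0 TPM, and LYZ and AIF1 were also above 0 in every library. The part of myeloid cells in the STAB1 level was not tested. The 3 tested genes with centred log2 profiles over the 4 libraries nearest to that of STAB1 were SEMA3F, ZNF224 and ZNF518A, at distances of 0.0812 to 0.0877, but 111 genes lay within 0.2, so such likeness over 4 libraries is only a description.

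STAB2 (ENSG00000136011; chromosome 12, 103587273 to 103766727, plus strand) encodes stabilin-2, the main hyaluronan clearance receptor of liver and lymph node sinusoids. It had 0.08 TPM in GFP-positive replicate 1, 0 in GFP-positive replicate 2, and 1.35 and 0.43 TPM in the GFP-negative libraries. For its transcript of 8251 nt, that is 1.0 and 0 steps in GFP-positive and 19.5 and 4.9 steps in GFP-negative libraries. Both GFP-positive libraries lay below both GFP-negative libraries, as they did for 21.5% of all tested genes. STAB2 missed the filter on low values and has no test. STAB1 exceeded STAB2 by 337-fold and 748-fold in the GFP-negative libraries, so a single stabilin accounted for nearly all stabilin transcripts.

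**Figure D2:**
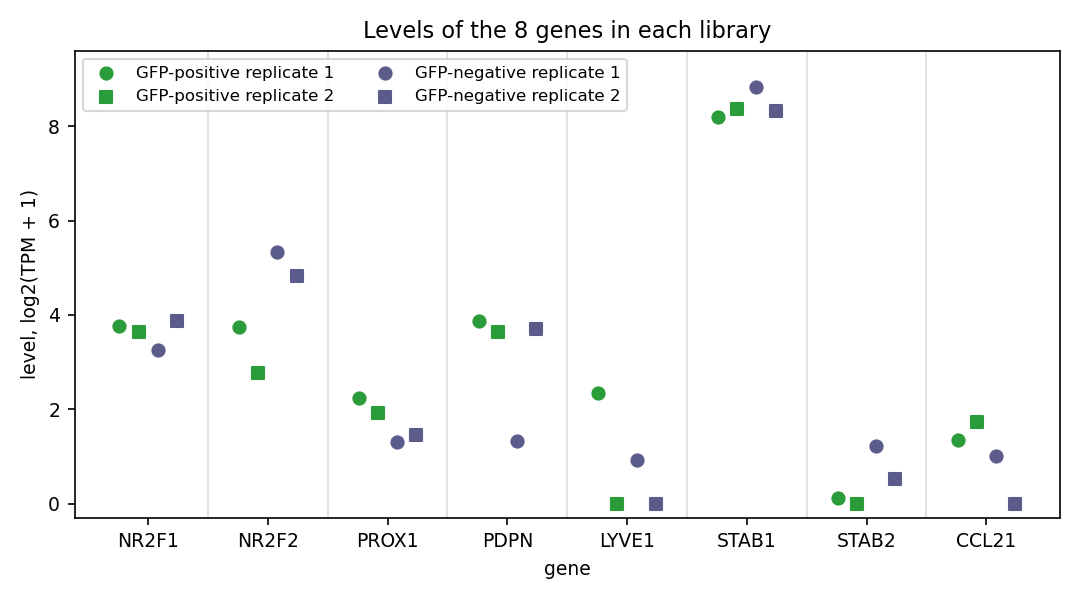
Level of each of the 8 genes in each library, as log2(TPM + 1); each point is 1 library, green for GFP-positive and purple for GFP-negative, circles for replicate 1 and squares for replicate 2. STAB1 stands far above the others, PDPN has a single low library at 1.51 TPM, and LYVE1 is at 0 in replicate 2 of each group. The groups do not overlap for NR2F2, PROX1, STAB2 and CCL21, as for 44.3% of all tested genes.

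The bases before the start sites of STAB1 and STAB2 are printed to set the stabilin gene that was abundant beside its scarce paralog, and those of NR2F1 as an example of a window with a GATA word, since the cells had been sorted on a GATA2 reporter. RefSeq windows on GRCh38.p14 matched 5 of the 8 genes, some with several starts (PDPN, STAB1, NR2F1, STAB2 and NR2F2). The 250 bases before each start were searched on both strands for GATA words (AGATAA or TGATAA) and ETS words (CCGGAA or CAGGAA), and matches are in capitals. The windows shown are chr5:93582972-93583221 for the upstream of 2 starts of NR2F1, chr3:52495088-52495337 for STAB1 and chr12:103587023-103587272 for STAB2, all on the plus strand, 5′ to 3′.
NR2F1: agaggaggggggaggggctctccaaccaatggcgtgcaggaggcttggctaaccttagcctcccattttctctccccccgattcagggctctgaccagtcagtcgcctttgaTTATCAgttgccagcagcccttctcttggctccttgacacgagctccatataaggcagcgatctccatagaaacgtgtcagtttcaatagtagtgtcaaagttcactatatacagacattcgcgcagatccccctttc
STAB1: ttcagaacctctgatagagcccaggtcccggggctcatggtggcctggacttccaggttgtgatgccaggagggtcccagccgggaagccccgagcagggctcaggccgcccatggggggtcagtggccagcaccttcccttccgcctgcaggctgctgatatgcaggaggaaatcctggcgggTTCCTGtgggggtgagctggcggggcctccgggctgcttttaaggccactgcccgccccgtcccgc
STAB2: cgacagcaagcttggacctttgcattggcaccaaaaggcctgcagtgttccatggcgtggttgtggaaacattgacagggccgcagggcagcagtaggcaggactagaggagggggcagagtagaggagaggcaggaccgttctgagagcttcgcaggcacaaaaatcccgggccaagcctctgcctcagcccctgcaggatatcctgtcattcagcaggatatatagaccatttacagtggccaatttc
NR2F1 held 1 GATA word on the minus strand, STAB1 held 1 ETS word on the minus strand, and the STAB2 window held neither. Of the windows not printed, the second of NR2F1 held neither, and both of NR2F2 held 1 ETS word and no GATA word. Of 3 for PDPN, 1 held a GATA word and none an ETS word. All the windows not printed lay inside the GENCODE span of their gene, so they precede internal starts and can hold transcribed bases. GATA words stood in 14.6% and ETS words in 35.7% of 35116 such windows of all genes. A match is a description of the letters and not of a bound site.

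**Figure D3:**
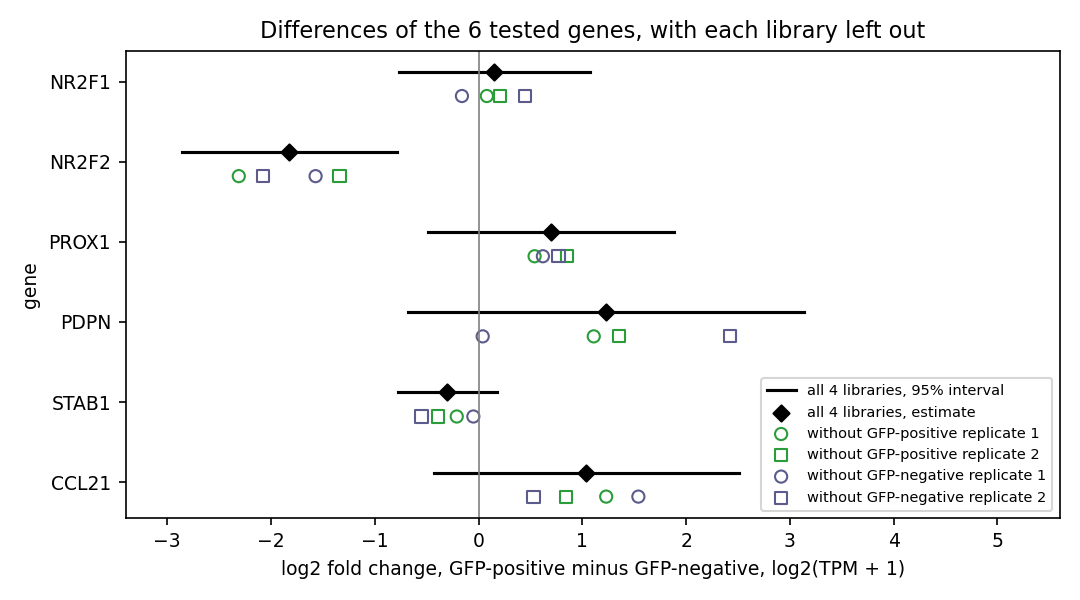
Log2 fold change of the 6 tested genes on log2(TPM + 1), GFP-positive minus GFP-negative; black diamonds and lines are the estimates and 95% intervals from all 4 libraries, and open symbols are estimates with 1 library left out. NR2F2 stays between -2.31 and -1.34 when a library is left out, while PDPN runs from 0.04 to 2.42.

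Genes that act with these 8 were taken from 8 related lists, some of which share members with each other and with the set. Among 14 venous receptors and markers, all tested, 0 rose and 1 fell, beside 0.324% of all tested genes that fell. Of the 14, 9 were lower in both GFP-positive libraries, beside 21.5% of all tested genes, and 2 were higher in both, beside 22.8%. The median log2 fold change was -0.77, beside 0.02. PLVAP, which forms the diaphragms of fenestrated and venous endothelium, fell from 1978 and 1628 to 807 and 844 TPM (limma adjusted p = 0.0439), a log2 fold change of -1.12 ± 0.14 (SE). That call was lost on leaving out either GFP-positive library (limma adjusted p = 0.0785 for replicate 1 and 0.0763 for replicate 2) or GFP-negative replicate 1 (0.117). Neither of the following, chosen after their values were seen, passed. EPHB4, the venous receptor for ephrin-B2, had 166 and 151 against 282 and 190 TPM (limma adjusted p = 0.337), and NRP2, a co-receptor of venous and lymphatic endothelium, had 801 and 851 against 894 and 804 TPM (limma adjusted p = 0.933).

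Of 13 lymphatic transcription regulators, 12 were tested, 1 rose and 0 fell, beside 0.123% and 0.324% of all tested genes. The 1 that rose was GATA2, by whose reporter the cells were sorted, so its difference is not independent of the sort (302 and 385 TPM against 80.2 and 87.3 TPM; limma adjusted p = 0.0316). For 9 of the 12, including NR2F2, both GFP-positive libraries lay below both GFP-negative libraries, beside 21.5% of all tested genes, and the median log2 fold change was -1.47, beside 0.02. The following, chosen after their values were seen, did not pass. FOXC2, a forkhead factor of lymphatic valves, had 2.66 and 5.15 TPM in GFP-positive and 15.4 and 17.3 TPM in GFP-negative libraries (limma adjusted p = 0.148). SOX18, which acts on PROX1 in the embryonic vein, had 32.2 and 41.4 against 58.1 and 76.3 TPM (limma adjusted p = 0.207). PROX1 thus stood on the other side of 0 from SOX18 and NR2F2, without any of the 3 passing.

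Of 13 genes of the VEGFC axis, which drives lymphatic growth, 9 were tested. Of these, 0 rose and 2 fell, beside 0.123% and 0.324% of all tested genes. The median log2 fold change was -0.68, beside 0.02 over all tested genes. FLT4, the VEGFC receptor, fell from 347 and 340 to 104 and 111 TPM (limma adjusted p = 0.0316, rising to 0.0641 when GFP-negative replicate 1 was left out). RAMP2, the co-receptor with which CALCRL binds adrenomedullin, fell from 514 and 261 to 47.8 and 40.3 TPM (limma adjusted p = 0.0391), a log2 fold change of -3.03 ± 0.32 (SE). The ligand VEGFC was at 0 in 3 libraries and at 0.46 TPM in GFP-positive replicate 2, and VEGFD, under its older symbol FIGF, was at 0 in all 4.

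Of 17 lymphatic endothelial markers, 15 were tested, 0 rose and 1 fell (FLT4), beside 0.123% and 0.324% of all tested genes. Log2 fold changes were above 0 for 6 and below for 9, with a median of -0.18, beside 0.02. NTS, the neurotensin gene, named here because of its values, had the highest level of the list in GFP-positive cells, at 1602 and 1759 TPM in GFP-positive and 293 and 575 TPM in GFP-negative libraries (limma adjusted p = 0.0612). RELN, likewise chosen afterwards, encodes reelin, secreted by lymphatic endothelium, and had 16.7 and 19.6 against 4.23 and 8.11 TPM (limma adjusted p = 0.207).

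None of the remaining lists had a gene that passed, 0 of 7 tested endothelial scavenger receptors, 0 of 10 podoplanin and CCL21 partners, 0 of 7 hyaluronan receptors and enzymes and 0 of 17 arterial and Notch genes. By abundance, the scavenger receptors after STAB1 were SCARF1, at 132 and 166 against 176 and 179 TPM, and COLEC12, at 75.2 and 76.7 against 77.9 and 82.0 TPM. CD44, the widely expressed hyaluronan receptor, had 484 and 564 against 377 and 429 TPM (limma adjusted p = 0.327), far above LYVE1 and STAB2 in every library. Moesin (MSN), which links podoplanin to actin, had 970 and 977 against 1173 and 1208 TPM, and RHOA, downstream of podoplanin, had 835 and 763 against 879 and 812 TPM. HYAL2, a hyaluronidase, had 177 and 162 against 307 and 254 TPM (limma adjusted p = 0.131), and TMEM2, another, had 124 and 78.3 against 109 and 109 TPM.

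The arterial genes were compared because NR2F2 and Notch are known as opposing regulators. Of the 17, 14 were lower in both GFP-positive libraries, beside 21.5% of all tested genes, and 1 was higher in both, beside 22.8%. The median log2 fold change was -0.72, close to the -0.77 of the venous list. HES1, a Notch target, had 118 and 110 against 157 and 177 TPM, ACVRL1 had 108 and 90.4 against 180 and 158 TPM, and NRP1 had 85.4 and 95.6 against 129 and 143 TPM, with limma adjusted p-values of 0.203, 0.137 and 0.202. Venous and arterial lists both lay on the side of the endothelial markers, whose median was -0.92. The part of the endothelial share of RNA in these list values was not tested.

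**Figure D4:**
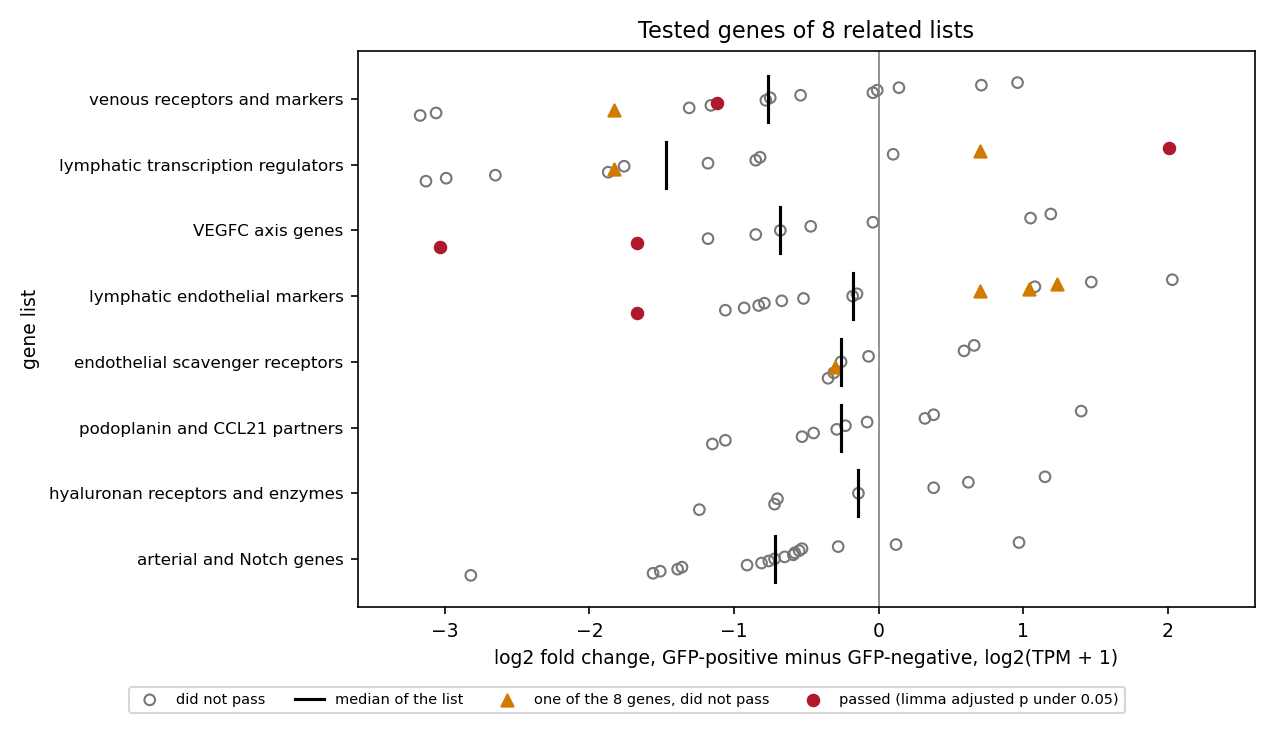
Log2 fold change on log2(TPM + 1), GFP-positive minus GFP-negative, of every tested gene in 8 related lists; each point is a gene, red where it passed, orange triangles where it is 1 of the 8 genes, and black bars are list medians. The median is -1.47 for lymphatic transcription regulators, -0.77 for venous and -0.72 for arterial and Notch genes, and GATA2 is the red point at 2.01.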

How the data were processed

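Trizol-extracted total RNA had been turned into sequencing libraries by an Illumina TruSeq kit, per the labels' protocols. The authors deposited 1 table of gene-level TPM per library; the file headers name the library and not the unit, which was taken from column sums of 996323.64 to 997292.9. The submitters' processing notes name Bowtie, RSEM, hg19 and mm10, without versions or roles. Limma 3.58.1 in R 4.3.3 was fitted on log2(TPM + 1) with a variance trend and adjusted by Benjamini-Hochberg. The fit covered every gene that reached 1 TPM in 2 or more libraries. The test was checked on simulated data. Changes were given only to genes with a mean of at least 5 TPM, with normal noise at the fitted variances. Of these, it recovered 32.4% at a log2 change of 1, 79.4% at 2, 94.4% at 3 and 98.8% at 4. Recovery of lower genes, such as PROX1 and CCL21, was not checked. False calls in that check averaged 20.3 per simulated table of 15425 genes. That is a count over all genes and not the share of calls that were false, so it does not show that the threshold was held. Small changes were thus often missed and some calls were false. The 8 genes were matched by symbol, and other genes were named where they passed in a related list or, where none did, as its 3 most abundant, except as stated. Members and lists were chosen with earlier results of these data known. Coordinates come from GENCODE v29 on GRCh38, matched by gene identifier. The step between low values was the largest that fitted TPM times transcript length. Alternatives were other pseudocounts, filters, scalings and variance models, a replicate block and each library left out. The values of 1 listed gene are not reported here.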

Additional observations from a re-analysis of the deposited data

How the results depend on the processing

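NR2F2, PROX1, PDPN, STAB1 and CCL21 kept the direction of their log2 fold change in every alternative in which they could be fitted, and NR2F1 turned to -0.16 without GFP-negative replicate 1 (with a library left out, -0.16 to 0.45). PROX1 and CCL21 gave no value with a mean of at least 5 TPM, and LYVE1 and STAB2 were fitted only without a filter (0.71 and -0.82, limma adjusted p = 0.784 and 0.547). TMEM2 turned to 0.19 without GFP-positive replicate 2 (with a library left out, -0.47 to 0.19). The median of the tested members was 0.42, 0.56 with a pseudocount of 0.1, -0.08 with a mean of at least 5 TPM, and -0.01 to 0.53 with a library left out. The replicate numbers are not said to pair libraries, and deviations of same-numbered libraries correlated at 0.0719 over 15425 genes. With the replicate block, limma called 228 genes higher and 368 lower, and 1 member, NR2F2 (adjusted p = 0.0208, against 0.0805 to 0.445 over the other alternatives), together with ACVRL1 and HYAL2. Over all genes, limma called 19 higher and 50 lower; it called 0 and 0 with the pseudocount lowered to 0.1, without a filter and without a variance trend (2101, 2230 and 2072 genes had an unadjusted p under 0.05), so that PLVAP, GATA2, FLT4 and RAMP2 did not pass there. It called 50 and 114 with a mean of at least 5 TPM, 29 and 78 with quantile normalization, and 10 to 36 higher and 1 to 48 lower with a library left out, where the lone library of a group is assumed to vary like the others. The median of all genes moved by less than 0.1 under each scaling. CCL21, LYVE1 and STAB2 had 0 to 20.9 steps of TPM in a library, and no limit of detection was computed for them.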

Other observations

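MSR1, a scavenger receptor of macrophages and endothelium, showed the same pattern over libraries as LYVE1: 9.89 TPM in GFP-positive replicate 1, 3.39 TPM in GFP-negative replicate 1 and 0 in replicate 2 of each group. OLR1, another scavenger receptor, was at 0 in replicate 1 of each group and at 1.81 and 3.55 TPM in replicate 2 of GFP-positive and GFP-negative cells. CLEC1B, the platelet receptor for podoplanin, had 2.27 and 1.14 TPM in the GFP-positive libraries and was listed at 0 in both GFP-negative libraries (limma adjusted p = 0.343). TBX18, a factor of mesothelial and mural cells, had 9.82 and 8.40 TPM in GFP-positive and 0.87 and 0.80 TPM in GFP-negative libraries (limma adjusted p = 0.0971). All 4 genes were chosen after their values were seen.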
